A study of Sus scrofa with 24 samples.

Results

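Subcutaneous adipocytes of Yorkshire piglets were compared before and after 8 days of adipogenic differentiation by small RNA sequencing. The cells were preadipocytes from back subcutaneous fat (BF) of 6-day-old pigs, cultured and collected on day 0 (BF-0d) and day 8 (BF-8d), with 3 libraries a day. These are 6 of the 24 libraries of the study, which also holds day 2 and day 4 and the same days of intramuscular (IMF) preadipocytes from the longissimus dorsi. The members are 430 of the 1587 miRNA entries, those whose average over the 24 libraries reached 1 TPM. Here TPM is reads per 1000000 reads counted on miRNAs, and the entries are 270 known miRNAs (ssc-miR names) and 160 new ones that the study predicted (novel_miR names).

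On day 0 the cells had grown nearly to confluence in serum medium. They then received 3-isobutyl-1-methylxanthine, dexamethasone and insulin for 2 days, insulin alone for 2 more days, and serum medium until day 8. No culture kept without these agents until day 8 is among the samples, so the agents, the days in culture and the differentiation itself cannot be told apart. The study took cells from 3 piglets, but the labels tie no library to a piglet, so the p-values measure the spread between these libraries, which may be technical. In such bulk samples, fewer cells of a type and less of a miRNA per cell cannot be told apart, and TPM is a share of all miRNA reads, so that an abundant miRNA that falls raises the TPM of the others.

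A miRNA is a strand of about 22 bases cut from a hairpin precursor, and it represses messenger RNAs that pair with its seed, bases 2 to 8 from the 5′ end. miRNAs with the same seed form a family with largely shared targets, while neighbours on a chromosome are often cut from a single transcript and can rise and fall together. In preadipocytes, miRNAs act on the exit from the cell cycle, on the transcription factors that start fat cell differentiation (PPARγ and the C/EBP proteins) and on lipid storage. In mice or humans, the levels of miR-143, miR-148a, miR-30 and miR-378 are known to rise in differentiating adipocytes, and those of miR-27 to fall.

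The results below turn on a few sequences, shown with the seed in capitals and taken from the table of sequences in the study's supplement. The first set is the miRNAs with the highest levels and the known miRNA with the largest rise.

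ssc-miR-21-5p: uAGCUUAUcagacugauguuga
ssc-miR-148a-3p: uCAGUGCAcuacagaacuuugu
ssc-miR-210: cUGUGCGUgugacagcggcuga

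The cluster of ssc-miR-183, ssc-miR-96 and ssc-miR-182 is shown because its 3 members share most of their seed letters and all rose.

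ssc-miR-183: uAUGGCACugguagaauucacug
ssc-miR-96-5p: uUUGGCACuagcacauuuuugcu
ssc-miR-182: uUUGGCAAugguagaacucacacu

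The ssc-miR-99/100 family shares the seed ACCCGUA but its members moved in opposite directions.

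ssc-miR-99a-5p: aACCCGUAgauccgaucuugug
ssc-miR-100: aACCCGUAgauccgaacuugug
ssc-miR-99b: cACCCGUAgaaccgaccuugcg

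The ssc-miR-30 family shares the seed GUAAACA, and its 5 members with this seed ranged from a large rise to a small negative difference.

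ssc-miR-30a-5p: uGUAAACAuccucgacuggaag
ssc-miR-30b-5p: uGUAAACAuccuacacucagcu
ssc-miR-30c-5p: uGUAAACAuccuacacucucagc
ssc-miR-30d: uGUAAACAuccccgacuggaagcu
ssc-miR-30e-5p: uGUAAACAuccuugacuggaagcu

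Families whose measured members moved the same way are shown for ssc-miR-29 (seed AGCACCA), ssc-miR-221 and ssc-miR-222 (seed GCUACAU) and ssc-miR-27 (seed UCACAGU).

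ssc-miR-29b: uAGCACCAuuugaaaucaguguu
ssc-miR-29c: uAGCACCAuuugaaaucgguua
ssc-miR-221-3p: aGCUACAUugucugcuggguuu
ssc-miR-222: aGCUACAUcuggcuacugggucuc
ssc-miR-27a: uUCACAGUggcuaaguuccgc
ssc-miR-27b-3p: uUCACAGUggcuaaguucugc

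In all, 339 of the 430 entries had a sequence and 332 could be placed by exact match in the pig genome, Sscrofa11.1, the build to which the authors mapped their reads. The libraries held 4954845 to 16863560 miRNA reads, so that 3 reads, taken as the detection floor, were worth 0.178 to 0.605 TPM, and 411 of the 430 entries were detected in all 6 libraries. The shallowest libraries were BF-8d 3 and BF-8d 2. Libraries of the same day correlated across entries on log2(TPM + 1) with Pearson's r of 0.989 to 0.997 and differed by far more than counting error, so none was a copy of another.

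The label was checked against 12 miRNAs known from adipocytes, among them ssc-miR-148a-3p, ssc-miR-143-3p and the ssc-miR-30 family. Together they held 18.9% to 23.8% of the reads on day 0 and 31.6% to 46.9% on day 8, with no overlap, and the rise was that of ssc-miR-148a-3p. The other 11 held 8.19% to 9.26% on day 0 and 6.15% to 9.10% on day 8, with overlap. Of the 12, 6 were called higher, against 27.9% of all 430 entries, and 6 were not called, of which ssc-miR-143-3p, ssc-miR-103, ssc-miR-107 and ssc-miR-30e-5p had changes below 0. Of the miRNAs of other cells, ssc-miR-206 and ssc-miR-133b of skeletal muscle, ssc-miR-150, ssc-miR-142 and ssc-miR-223 of blood cells, and ssc-miR-200b, ssc-miR-141 and ssc-miR-205 of epithelium each had means under 1 TPM on both days. Others were present and higher on day 8: ssc-miR-1 of muscle was 901 ± 98.4 TPM on day 0 and 1738 ± 530.1 on day 8, ssc-miR-133a-3p of muscle was 7.68 ± 0.146 TPM on day 0 and 22.4 ± 1.11 on day 8 and ssc-miR-9 of neurons was 25.9 ± 3.8 TPM on day 0 and 51.9 ± 4 on day 8.

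BF-0d vs. BF-8d gave 184 DE-miRNAs (FDR under 0.05 and fold change above 1.5, limma on log2(TPM + 1)), 42.8% of the 430. Of these, 120 (27.9%) were higher on day 8 and 64 (14.9%) lower, and 124 were known and 60 new. On the log2(TPM + 1) scale, 30 DE-miRNAs rose over 4-fold and none fell that far, while 70 rose and 28 fell over 2-fold. Of the rises, 10 were of entries with no read on day 0, which passed the filter on low values only through groups where they were present. Without these 10, 110 were higher on day 8, 20 of them over 4-fold and 60 over 2-fold, beside the same 64 lower. Leaving out all 13 entries with at most 3 reads in each BF-0d library left 107 higher. The pseudocount shrinks the changes of rare entries, and by the ratio of mean TPM 11 of the 64 fell over 4-fold, up to 23.0-fold for ssc-miR-10383. That last ratio is unstable, since ssc-miR-10383 had reads in only 1 day 8 library (0.39 TPM). The libraries of both days did not overlap for 231 entries (53.7%), of which 141 (32.8%) were higher on day 8 and 90 (20.9%) lower. The median log2 fold change over the 430 entries was 0.15, and scaling by the median of ratios lowered it to 0.03. With that scaling there were 181 DE-miRNAs, 101 higher and 80 lower, and the 184 kept their direction. The plot of level and change shows that rises came at every level.

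**Figure D1:**
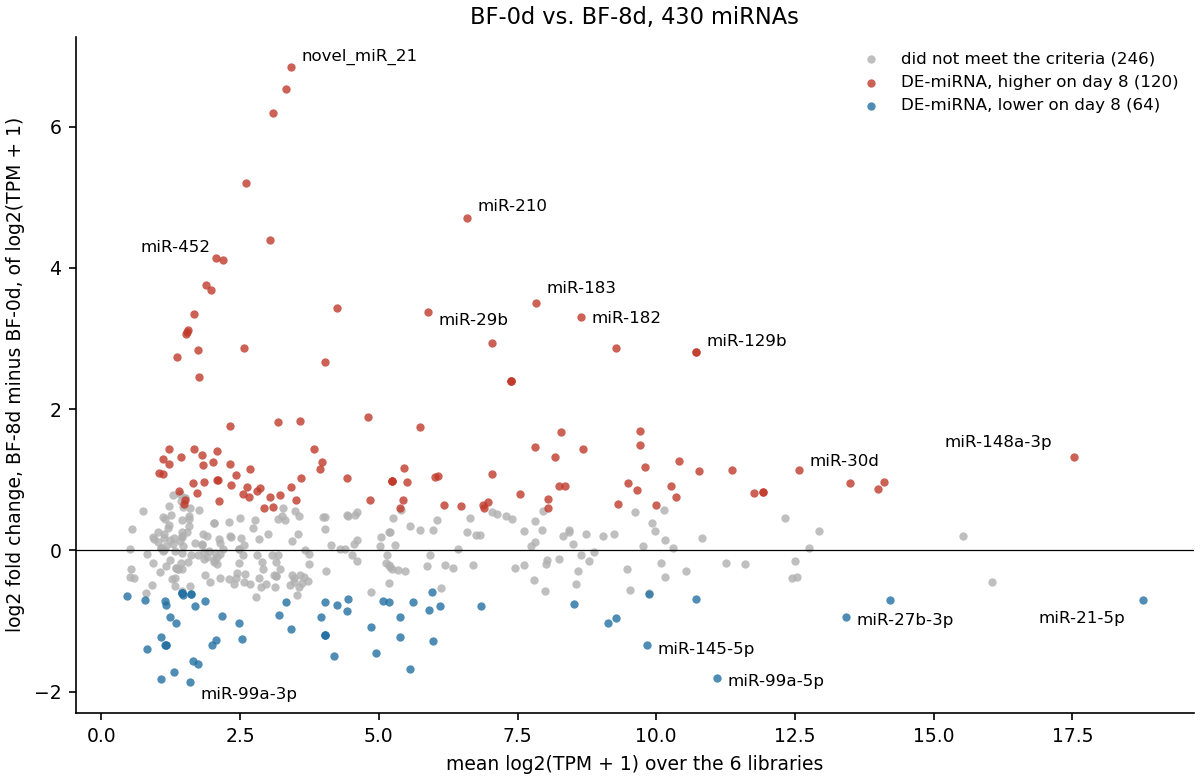
Each point is 1 of the 430 miRNAs, with its mean log2(TPM + 1) over the 6 libraries on the x axis and its log2 fold change, BF-8d minus BF-0d, on the y axis. Red points are the 120 DE-miRNAs higher on day 8, blue points the 64 lower on day 8 and grey points the other 246. The rises reach 6.84 (novel_miR_21), and the falls end at -1.86 (ssc-miR-99a-3p).

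The pool was dominated by ssc-miR-21-5p and ssc-miR-148a-3p, which moved in opposite directions. ssc-miR-21-5p, an abundant miRNA of proliferating and stromal cells, was 584638, 541944 and 590872 TPM on day 0 and 279225, 382980 and 402881 TPM on day 8. Its share of the reads was thus 54.2% to 59.1% on day 0 and 27.9% to 40.3% on day 8, without overlap, and its log2 fold change was -0.71 (adjusted p = 0.0143). The call was lost without BF-0d 1 (adjusted p = 0.101), without BF-0d 3 (0.0680) and with the replicate number as a block (0.0746). Without BF-8d 1, the library with the lowest share, the log2 fold change was -0.54 (adjusted p = 0.00283), under the criterion of 1.5-fold.

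ssc-miR-148a-3p, known to promote adipogenesis by acting on WNT signalling, was 112332, 145855 and 103996 TPM on day 0 and 378352, 277444 and 254105 TPM on day 8. Every day 8 library was above every day 0 library, and the means were 120728 ± 22156 TPM on day 0 and 303301 ± 66036 on day 8, a log2 difference of 1.32 (adjusted p = 0.000172). Its relative ssc-miR-148b-3p, with the same seed, also rose (2647 ± 366 TPM on day 0 and 4643 ± 104 on day 8, log2 fold change 0.82, adjusted p = 0.00174). ssc-miR-152, the third miRNA with the seed CAGUGCA, did not meet the criteria (3317 ± 122 TPM on day 0 and 2913 ± 293 on day 8, log2 fold change -0.19, adjusted p = 0.413). Summed over the 3, the seed CAGUGCA went from 126690 TPM on day 0 to 310860 TPM on day 8. The 3 are cut from loci far apart: ssc-miR-148a lies between genes at chr18:46415213-46415280, while ssc-miR-148b and ssc-miR-152 lie in introns of COPZ1 (chr5:19530990-19531069) and COPZ2 (chr12:24292249-24292328).

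Among the 10 most abundant miRNAs, ssc-miR-151-3p, ssc-miR-10b and ssc-miR-199b-5p also rose, and ssc-miR-100 and ssc-miR-27b-3p fell. ssc-miR-151-3p, from an intron of PTK2, was 13000 ± 4023 TPM on day 0 and 25722 ± 8702 on day 8 (log2 fold change 0.98, adjusted p = 0.00515). ssc-miR-10b, from the HOXD region, was 12436 ± 4191 TPM on day 0 and 22262 ± 3944 on day 8 (log2 fold change 0.87, adjusted p = 0.00629). The other 3, ssc-miR-143-3p, ssc-let-7i-5p and ssc-miR-10a-5p, did not meet the criteria. ssc-miR-143-3p, which is known to promote adipogenesis, was 74431, 84467 and 78038 TPM on day 0 and 78541, 55421 and 44770 TPM on day 8, so the days overlapped (log2 fold change -0.44, adjusted p = 0.115). Without BF-8d 1 it passed as lower (log2 fold change -0.66, adjusted p = 0.00238).

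The known miRNA with the largest rise was ssc-miR-210, which is induced by hypoxia-inducible factors and also promotes adipogenesis. It was 18, 15.4 and 20.2 TPM on day 0 and 392, 503 and 598 TPM on day 8. The days were far apart, with a ratio of means of 27.9, and the log2 fold change was 4.71 with an SE of 0.21 (adjusted p = 3.05e-11). ssc-miR-210 lies between annotated genes at chr2:335271-335346, and its call held in all 15 alternatives.

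ssc-miR-183, ssc-miR-96 and ssc-miR-182, a cluster best known from sensory organs, rose as a whole. The cluster spans chr18:18982269-18986913 on the plus strand, between annotated genes. ssc-miR-183 was 56.2, 94.3 and 56.4 TPM on day 0 and 961, 557 and 844 TPM on day 8. ssc-miR-182 was 102, 173 and 112 TPM on day 0 and 1394, 885 and 1590 TPM on day 8. ssc-miR-96-5p was rarer, at 7.23, 5.1 and 4.51 TPM on day 0 and 29.2, 39.7 and 56.9 TPM on day 8. In each of the 3 the day 8 libraries were all above those of day 0, with log2 fold changes of 3.50 (adjusted p = 5.66e-09) for ssc-miR-183, 3.31 (adjusted p = 8.92e-09) for ssc-miR-182 and 2.67 (adjusted p = 3.05e-07) for ssc-miR-96-5p. Over all entries, 27.9% were called higher and 32.8% were higher without overlap.

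A pair of miRNAs that was almost silent on day 0 came from an intron of GABRE on chromosome X. ssc-miR-452 was 0.271, 0 and 0.0593 TPM on day 0 and 10.8, 20.5 and 26.6 TPM on day 8, and its day 0 values stand for 0 to 3 reads a library. ssc-miR-224, listed among the miRNAs that restrain adipogenesis, was 0.181, 0.0663 and 0.0593 TPM on day 0 and 7.87, 15.5 and 18.4 TPM on day 8, or 1 to 2 reads a library on day 0. Every day 8 library was above every day 0 library, with log2 fold changes of 4.11 for ssc-miR-452 and 3.68 for ssc-miR-224. Both had at most 3 reads in each day 0 library and passed the filter on low values through the groups where they were present, so that they are called is no finding. Since the day 0 levels lie far under the pseudocount of 1 TPM, the size of these changes depends on it.

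ssc-miR-129b and ssc-miR-129a-5p share a mature sequence and were counted alike. ssc-miR-129b was 561, 824 and 561 TPM on day 0 and 4613, 3958 and 4938 TPM on day 8. The rise was 6.94-fold by the ratio of means (log2 fold change 2.81, SE 0.20, adjusted p = 6.09e-09), and the rare opposite arm, ssc-miR-129a-3p, rose with it (13.9 ± 4.03 TPM on day 0 and 53.3 ± 8.74 on day 8, log2 fold change 1.89, adjusted p = 9.3e-06). The entries ssc-miR-218, ssc-miR-218-5p and ssc-miR-218b also shared their reads, from introns of SLIT2 (chr8) and SLIT3 (chr16). They were named after their values were seen. ssc-miR-218 was 79.7, 70.1 and 64.8 TPM on day 0 and 381, 382 and 379 TPM on day 8, with the 3 day 8 libraries almost equal and all higher (log2 fold change 2.40, SE 0.18, adjusted p = 1.19e-08).

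ssc-miR-221 and ssc-miR-222, which act on the cell cycle inhibitor p27 and restrain adipogenesis in several models, lie next to each other on the minus strand at chrX:40571068-40571887. ssc-miR-221-5p was 252, 233 and 203 TPM on day 0 and 825, 2435 and 2332 TPM on day 8. The main arm, ssc-miR-221-3p, was 1140, 719 and 828 TPM on day 0 and 1195, 2382 and 3289 TPM on day 8. ssc-miR-222, which shares its seed, was 542, 400.1 and 469.8 TPM on day 0 and 989.5, 1460.1 and 2357 TPM on day 8. The 3 rose without overlap, where 27.9% of all entries were called higher and 32.8% were higher without overlap. Within day 8, however, library 1 was the lowest in each, and for ssc-miR-221-3p it stood just above the highest day 0 library. The log2 fold changes were 2.87 (adjusted p = 1.2e-06) for ssc-miR-221-5p, 1.26 (adjusted p = 0.00221) for ssc-miR-221-3p and 1.69 (adjusted p = 5.97e-05) for ssc-miR-222.

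The ssc-miR-29 family, which represses collagens and other matrix genes, rose in 4 of 4 measured entries, against 27.9% of all entries. ssc-miR-29b was 23.6, 12.1 and 18.5 TPM on day 0 and 194, 180.4 and 196 TPM on day 8, or 10.5 times higher on day 8 (log2 fold change 3.37, SE 0.23, adjusted p = 4.27e-09). Its neighbour at chr9:135019079-135019725, ssc-miR-29c, was far rarer and rose less (0.713 ± 0.0814 TPM on day 0 and 3.38 ± 1.12 on day 8, log2 fold change 1.33, adjusted p = 0.000425). The mature sequence of ssc-miR-29b occurs at 2 places in the genome, so its reads cannot be assigned to this locus. ssc-miR-29a-3p, the most abundant of the family and cut from chromosome 18, rose least (823 ± 159 TPM on day 0 and 1273 ± 127 on day 8, log2 fold change 0.64, adjusted p = 0.0142). It lost the call without BF-0d 2 (adjusted p = 0.0632) and without BF-8d 2 (0.0803), and fell under 1.5-fold with median-of-ratios scaling (log2 fold change 0.50).

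The 3 measured entries of ssc-miR-146 and ssc-miR-155, and both of ssc-miR-132 and ssc-miR-212, were higher on day 8, against 27.9% of all entries. ssc-miR-146b, known to promote adipogenesis, was 6.24, 3.85 and 4.45 TPM on day 0 and 77, 56.6 and 53.3 TPM on day 8. ssc-miR-146a-5p, with the same seed (GAGAACU), was 241, 143 and 153 TPM on day 0 and 466, 576 and 645 TPM on day 8. ssc-miR-155-5p, which represses C/EBPβ, was 522, 542 and 432 TPM on day 0 and 1069, 1497 and 1731 TPM on day 8. All 3 were without overlap and had log2 fold changes of 3.44 (adjusted p = 4.27e-09), 1.68 (adjusted p = 1.38e-05) and 1.5 (adjusted p = 2.09e-05), in this order. ssc-miR-132 and ssc-miR-212, induced by cyclic AMP signalling through CREB and cut from 1 locus at chr12:48162625-48163135, rose with log2 fold changes of 1.74 (adjusted p = 2.75e-06) and 1.83 (adjusted p = 9.3e-06).

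Of the other known rises, ssc-miR-138, a miRNA that restrains adipogenesis in human stem cells, was 1.18, 0.729 and 1.84 TPM on day 0 and 14.8, 12.6 and 18.4 TPM on day 8. It was rare on day 0, with 11 to 31 reads a library, and higher in all 3 day 8 libraries (log2 fold change 2.87, adjusted p = 8.12e-08). ssc-miR-34a, a target of p53 and known from obese adipose tissue, was 135 ± 13.4 TPM on day 0 and 375 ± 46.7 on day 8 (log2 fold change 1.46, adjusted p = 1.06e-05). novel_miR_978, whose predicted precursor at chr6:69603604-69603715 contains the mature ssc-miR-34a, rose likewise (1.21 ± 0.0749 TPM on day 0 and 4.66 ± 0.74 on day 8, log2 fold change 1.35, adjusted p = 0.000189).

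**Figure D2:**
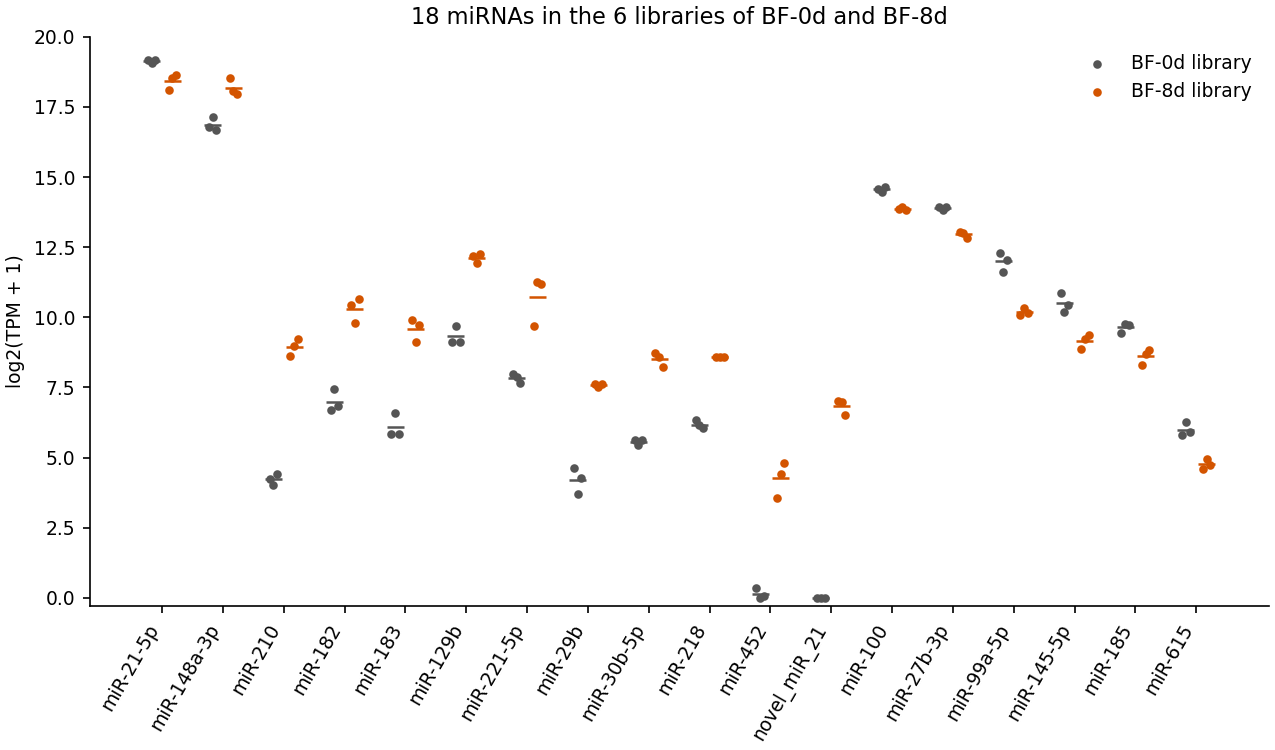
Points are the log2(TPM + 1) of 18 miRNAs in each of the 3 BF-0d (grey) and 3 BF-8d (orange) libraries, with a bar at each mean. ssc-miR-21-5p, at the left, and the last 6 miRNAs were lower on day 8, the 11 between them were higher, and the days do not overlap for any of the 18.

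New entries held 0.255% to 0.270% of the reads on day 0 and 0.362% to 0.412% on day 8. In all, 10 entries, each of them new, had no read in any BF-0d library, and they met the filter on low values only through the groups where they were present, so neither their calls nor the rank of their rises is a finding. The most abundant, novel_miR_21, was 0 TPM in the 3 day 0 libraries and 128, 125 and 90.6 TPM in the day 8 libraries. Against 3 reads over the day 0 group (0.0698 TPM), it was at least 1645-fold higher, and novel_miR_848 at least 1156-fold. The other 8 entries were at least 86.9-fold to 523.6-fold higher on day 8. novel_miR_298 had 2 reads over day 0, both in BF-0d 2, and 2127 over day 8, a ratio of 1906 (95% exact interval 527 to 15750, counting error only). This entry also met the filter on low values only through the groups where it was present, so its call and rank are no finding. The interval pools reads and does not cover the spread between libraries.

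The 10 entries also shared a profile over the other libraries. Their summed level was 253 TPM in library 1 of BF-4d but 12.9 and 15.4 TPM in libraries 2 and 3, and 278, 398 and 228 TPM in the libraries of BF-8d. They were at 0 in every IMF library of days 0, 2 and 4, and at 0.735 to 2.15 TPM in IMF-8d. Of the 10, 4 had a sequence, of 18 or 19 bases, against a median of 22 for the known entries. novel_miR_848 (chr6:89873246-89873353) lay antisense in an intron of CSMD2 and novel_miR_266 antisense in an intron of GXYLT1, while novel_miR_623 (chr4:27509168-27509275) and novel_miR_994 lay between genes. novel_miR_1222, which also rose (log2 fold change 4.40, adjusted p = 7.64e-09), has a mature sequence with 237 exact copies in the genome, so the origin of its reads is uncertain.

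The ssc-miR-99a/let-7c locus had all 3 of its measured entries lower on day 8, against 14.9% of all entries, ssc-miR-99a-3p having the largest fall on the log2(TPM + 1) scale. ssc-miR-99a-5p, whose family acts on mTOR and IGF1 receptor signalling, was 5045, 3165 and 4254 TPM on day 0 and 1091, 1279 and 1140.1 TPM on day 8. Its rare opposite arm, ssc-miR-99a-3p, was 5.61, 3.38 and 5.75 TPM on day 0 and 0.701, 0.484 and 0.605 TPM on day 8. ssc-let-7c, cut from the same locus at chr13:181302483-181303302 in an intron of a long transcript, was 2264, 2261 and 1895 TPM on day 0 and 1159.9, 1355 and 1497 TPM on day 8. The 3 fell without overlap, with log2 fold changes of -1.80 (adjusted p = 1.72e-06) for ssc-miR-99a-5p, -1.86 (adjusted p = 1.49e-05) for ssc-miR-99a-3p and -0.68 (adjusted p = 0.007) for ssc-let-7c. Without BF-8d 1, ssc-let-7c changed by less than 1.5-fold (log2 fold change -0.58, adjusted p = 0.0142).

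The relatives of this locus on other chromosomes did not all follow it. ssc-miR-100 (chr9), the most abundant miRNA with the seed ACCCGUA, was 24232, 22712 and 25533 TPM on day 0 and 14717, 15579 and 14432 TPM on day 8 and fell (log2 fold change -0.70, adjusted p = 0.00515). ssc-miR-99b (chr6), with the same seed, was 1483, 2138 and 1738 TPM on day 0 and 4087, 3571 and 4049.6 TPM on day 8 and rose (log2 fold change 1.14, adjusted p = 0.000157). Their summed level with ssc-miR-99a-5p went from 30100 TPM to 19982 TPM. ssc-miR-125b, a miRNA of many stromal cells, fell (874 ± 148 TPM on day 0 and 449.6 ± 64.9 on day 8, log2 fold change -0.95, adjusted p = 0.00087), while ssc-miR-125a, next to ssc-miR-99b, did not meet the criteria (429.6 ± 76.4 TPM on day 0 and 354 ± 87.8 on day 8, log2 fold change -0.29, adjusted p = 0.288).

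ssc-miR-143 and ssc-miR-145, miRNAs of smooth muscle and stromal cells cut from chr2:150578738-150580211, had 3 of their 4 arms lower on day 8, against 14.9% of all entries. ssc-miR-145-5p was 1874, 1164 and 1388 TPM on day 0 and 472, 599 and 655 TPM on day 8. Its opposite arm ssc-miR-145-3p was 117, 66.6 and 74.3 TPM on day 0 and 22.6, 23.1 and 31.1 TPM on day 8. The third was the minor arm ssc-miR-143-5p (102 ± 39.5 TPM on day 0 and 40.5 ± 11.6 on day 8), and the log2 fold changes were -1.34 (adjusted p = 8.32e-05) for ssc-miR-145-5p, -1.68 (adjusted p = 2.52e-05) for ssc-miR-145-3p and -1.28 (adjusted p = 0.00112) for ssc-miR-143-5p. The abundant arm ssc-miR-143-3p was the exception, as given above.

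ssc-miR-27, which represses PPARγ and restrains adipogenesis, fell in both of its forms. ssc-miR-27b-3p was 15552, 14497 and 15651 TPM on day 0 and 8496, 8170.5 and 7237 TPM on day 8, with every day 8 library below every day 0 library (log2 fold change -0.94, SE 0.18, adjusted p = 0.000512). Its opposite arm ssc-miR-27b-5p fell by the same measure (20.4 ± 1.4 TPM on day 0 and 10.2 ± 1.14 on day 8, log2 fold change -0.94, adjusted p = 0.00187). ssc-miR-27a was 1511, 961 and 1050.3 TPM on day 0 and 641, 1085 and 605 TPM on day 8, and here BF-8d 2 exceeded 2 of the day 0 libraries (log2 fold change -0.62, adjusted p = 0.0459). That call held in 7 of 15 alternatives and was lost without BF-0d 1 (adjusted p = 0.198), BF-0d 3 (0.0667), BF-8d 1 (0.12) or BF-8d 3 (0.206). The seed UCACAGU summed over both went from 16407 to 8745 TPM, and their neighbours of the ssc-miR-23 and ssc-miR-24 families did not meet the criteria.

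Other falls were of single loci. ssc-miR-185 was 689, 868 and 845 TPM on day 0 and 313, 408 and 459.6 TPM on day 8. ssc-miR-615, from the HOXC region, was 55, 75.1 and 59.6 TPM on day 0 and 23.3, 30.0 and 25.6 TPM on day 8. ssc-miR-7857-3p was 30.6, 30.4 and 28 TPM on day 0 and 6.31, 12.6 and 11.9 TPM on day 8. Each was without overlap, with log2 fold changes of -1.03 (adjusted p = 0.000512), -1.23 (adjusted p = 0.000181) and -1.50 (adjusted p = 0.00015), in this order. ssc-miR-10383, from an intron of the growth factor gene IGF2 (chr2:1474432-1474502), was 3.89, 2.39 and 2.67 TPM on day 0 and 0.39, 0 and 0 TPM on day 8, and the last 2 of these values mean that no read was counted (log2 fold change -1.82, adjusted p = 2.36e-05). ssc-miR-187 likewise had no read in 2 of the day 8 libraries (1.87 ± 0.0759 TPM on day 0 and 0.104 ± 0.18 on day 8, log2 fold change -1.39, adjusted p = 0.000186).

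Among the new entries that fell, novel_miR_524, from an intron of PLXNA2, was 3.46 ± 0.0336 TPM on day 0 and 0.399 ± 0.403 on day 8 (log2 fold change -1.71, adjusted p = 5.29e-05). novel_miR_484, whose precursor overlaps a coding exon of the actinin gene ACTN1 (chr7:92559642-92559754), was 4.94 ± 1.6 TPM on day 0 and 0.956 ± 0.526 on day 8 (log2 fold change -1.61, adjusted p = 0.000186). novel_miR_638 and novel_miR_461 lie on 1 unplaced scaffold with ssc-miR-411, ssc-miR-299, ssc-miR-323, ssc-miR-758, ssc-miR-381 and ssc-miR-382, which belong to the imprinted DLK1-DIO3 locus in mammals. novel_miR_461 was 51.9, 57.3 and 42.2 TPM on day 0 and 13.2, 17.7 and 23.6 TPM on day 8, without overlap (log2 fold change -1.45, adjusted p = 0.000118). Of the 15 entries on this stretch, 5 were lower on day 8 and 1 higher (14.9% and 27.9% of all entries), while ssc-miR-381-3p, by far the most abundant of them, did not meet the criteria (4368 ± 444 TPM on day 0 and 6006 ± 783 on day 8, log2 fold change 0.46, adjusted p = 0.0579). Of the 13 measured members of the DLK1-DIO3 list, 2 fell (ssc-miR-370 and ssc-miR-411), which is near the share of all entries, and 1 rose (ssc-miR-493-5p), whose call was lost without BF-0d 1 (adjusted p = 0.0579) and without BF-0d 3 (0.0620).

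The members of the ssc-miR-30 family with the seed GUAAACA are listed by locus, and the differences between them were not tested. Of these, ssc-miR-30b-5p was 48.5, 42.7 and 48.9 TPM on day 0 and 419.8, 379.7 and 298 TPM on day 8, the largest rise of the family (log2 fold change 2.93, SE 0.20, adjusted p = 4.27e-09). ssc-miR-30d, its neighbour at chr4:6948669-6952869 and the most abundant member, was 4048, 4353 and 3969.9 TPM on day 0 and 7518, 8617 and 11493 TPM on day 8 (log2 fold change 1.14, adjusted p = 0.000202). ssc-miR-30a-5p on chromosome 1 was 552, 626 and 587 TPM on day 0 and 1379, 1269 and 1369 TPM on day 8 (log2 fold change 1.19, adjusted p = 4.33e-05). These 3 rose without overlap. The other 2 did not meet the criteria: ssc-miR-30c-5p was 143 ± 5 TPM on day 0 and 196 ± 20.5 on day 8 (log2 fold change 0.45, adjusted p = 0.0588). ssc-miR-30e-5p was 445 ± 37.8 TPM on day 0 and 329 ± 90.3 on day 8 (log2 fold change -0.47, adjusted p = 0.0876), but met those for a fall with median-of-ratios scaling (-0.62, adjusted p = 0.0154) and with DESeq2 (-0.62, adjusted p = 0.0125). Summed over the 5, the seed GUAAACA went from 5347 to 11439 TPM, and 5 of the 10 measured arms of the family rose with none lower (27.9% and 14.9% of all entries).

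The ssc-miR-17 cluster and its paralog on chromosome X had overlapping changes, and their difference was not tested. At chrX:110113549-110114468, 4 of 5 entries rose, against 27.9% of all entries: ssc-miR-106a (3.31 ± 0.454 TPM on day 0 and 9.09 ± 3.8 on day 8, log2 fold change 1.16, adjusted p = 0.00285), ssc-miR-20b, ssc-miR-19b and ssc-miR-363. The last 3 were small changes, of 0.76, 0.72 and 0.60 on the log2 scale. ssc-miR-20b and ssc-miR-363 lost the call in 7 of 14 and 11 of 15 alternatives, ssc-miR-20b without any of BF-0d 1, BF-0d 2, BF-0d 3, BF-8d 2 or BF-8d 3 (adjusted p = 0.0555 to 0.0969) and ssc-miR-363 without BF-0d 2, BF-0d 3, BF-8d 2 or BF-8d 3 (adjusted p = 0.137 to 0.197), and ssc-miR-19b fell under 1.5-fold with median-of-ratios scaling. The mature sequences of ssc-miR-19b and ssc-miR-92a each occur at 2 places in the genome, so their reads cannot be assigned to chromosome X. None of the 5 entries at chr11:60734656-60735179 met the criteria, although all 5 differences were above 0 (0.26 to 0.61). ssc-miR-17-5p of this locus had an adjusted p of 0.0271 but a log2 fold change of 0.56, under the criterion of 1.5-fold, and it was called without BF-8d 1 (log2 fold change 0.70, adjusted p = 0.00662).

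Both arms of 59 precursors were measured. In 37 of them the log2 fold changes of the arms had the same sign. Both arms were DE-miRNAs in 11, and 10 of these moved the same way. The exception was ssc-miR-708, from an intron of TENM4, whose 5p arm was 50.5, 38.1 and 48.9 TPM on day 0 and 19.6, 29 and 34.9 TPM on day 8. Its 3p arm was 90.9, 100.4 and 89.3 TPM on day 0 and 194, 157 and 103 TPM on day 8. The 5p arm was lower (log2 fold change -0.73, adjusted p = 0.0197) and the 3p arm higher (log2 fold change 0.64, adjusted p = 0.0302), without overlap, but leaving out BF-0d 1, BF-0d 3, BF-8d 1 or BF-8d 2 ended either call (adjusted p = 0.0551 to 0.123). The 3p call was also lost with median-of-ratios scaling (log2 fold change 0.50, adjusted p = 0.0863) and with DESeq2 (0.53, adjusted p = 0.0713). With edgeR the 3p change was under 1.5-fold (log2 fold change 0.57).

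**Figure D3:**
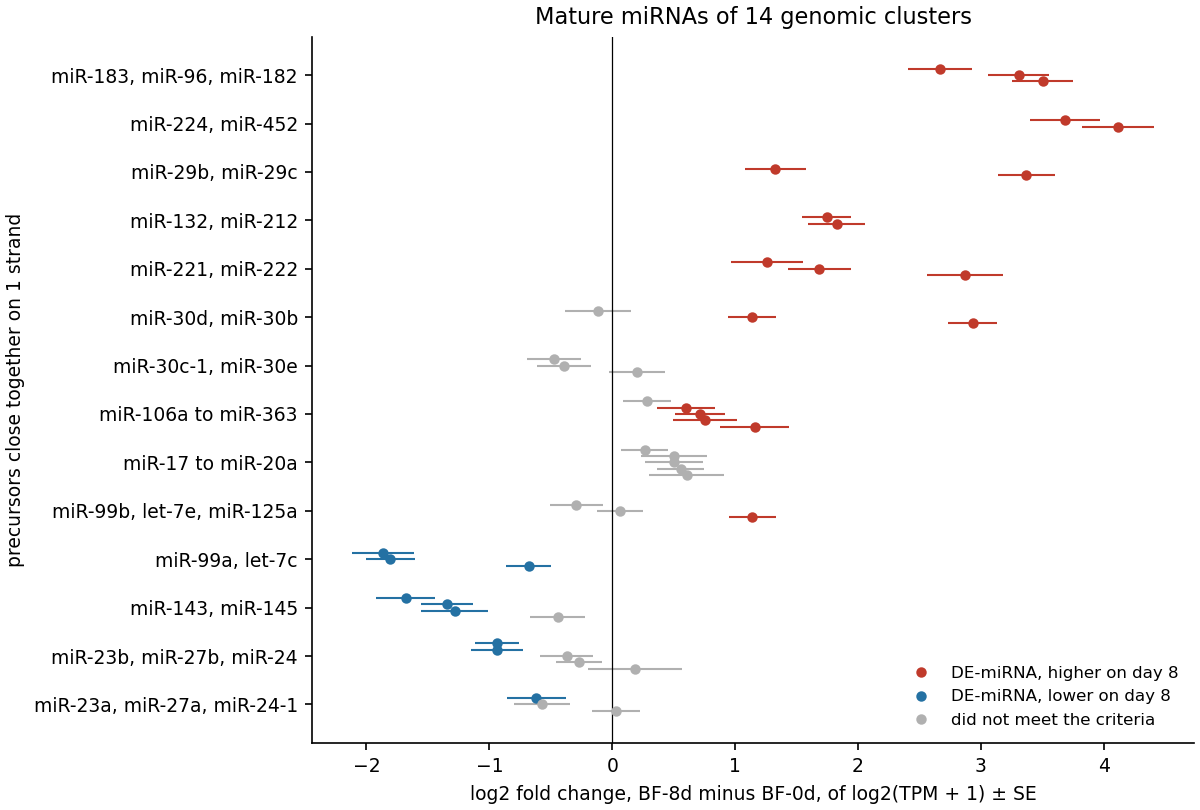
Each point is a mature miRNA of 1 of 14 groups of precursors that lie within 10000 bases on 1 strand, with its log2 fold change, BF-8d minus BF-0d, and the standard error from limma as a bar. Red and blue points are DE-miRNAs higher and lower on day 8. The groups of ssc-miR-183 and of ssc-miR-224 lie between 2.67 and 4.11, the ssc-miR-99a/let-7c group lies between -1.86 and -0.68, and the ssc-miR-17 group has no DE-miRNA.

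Of the miRNAs known to promote adipogenesis, 18 were measured, and 8 rose and 1 fell (ssc-miR-21-5p), against 27.9% and 14.9% of all entries, with a median log2 fold change of 0.50 against 0.15 over all 430. The 8 were ssc-miR-210, ssc-miR-146b, ssc-miR-30b-5p, ssc-miR-148a-3p, ssc-miR-30a-5p, ssc-miR-30d, ssc-miR-26b-5p and ssc-miR-181a. The call of ssc-miR-181a held in 5 of 15 alternatives and was lost without BF-0d 2, BF-0d 3, BF-8d 2 or BF-8d 3 (adjusted p = 0.0805 to 0.134). ssc-miR-26b-5p, from an intron of CTDSP1, was 638, 623 and 544 TPM on day 0 and 1098, 1113 and 1053 TPM on day 8 (log2 fold change 0.86, adjusted p = 0.000894). Its more abundant relative ssc-miR-26a, with the same seed but not on the list, was not called (log2 fold change -0.39). Summed over both, the seed UCAAGUA went from 7051 TPM on day 0 to 5992 TPM on day 8. Other miRNAs on this list did not meet the criteria, among them ssc-miR-103 (1164 ± 42.1 TPM on day 0 and 1051 ± 273 on day 8), ssc-miR-107 (34.5 ± 4.27 TPM on day 0 and 23.4 ± 7.34 on day 8) and ssc-miR-378 (1097 ± 228 TPM on day 0 and 1215 ± 240.0 on day 8). ssc-miR-107 met them for a fall with median-of-ratios scaling (log2 fold change -0.72, adjusted p = 0.00912), with edgeR (adjusted p = 0.0168), with DESeq2 (0.0058) and without BF-8d 2 (0.0276).

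Of the miRNAs known to restrain adipogenesis, 22 were measured, and 6 rose and 4 fell, near the 27.9% and 14.9% of all entries, with a median log2 fold change of -0.06. The 6 that rose were ssc-miR-224, ssc-miR-138, ssc-miR-222, ssc-miR-155-5p, ssc-miR-221-3p and ssc-miR-363, and the 4 that fell were ssc-miR-145-5p, ssc-miR-27b-3p, ssc-let-7c and ssc-miR-27a. ssc-miR-224 is counted among the 6 although its call, as given above, is no finding, since it passed the filter through the groups where it was present. The let-7 family, which holds back proliferation, had 2 of its 11 measured entries lower, ssc-let-7c and ssc-let-7d-3p, near the 14.9% of all entries, and none higher. The call of ssc-let-7d-3p was lost without BF-0d 1 (adjusted p = 0.0549), BF-0d 2 (0.0897) or BF-8d 3 (0.0732). Its most abundant member, ssc-let-7i-5p, was 44531 ± 7128 TPM on day 0 and 52305 ± 13129 on day 8 (log2 fold change 0.21, adjusted p = 0.471). Both lists had members in both directions.

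miRNAs of other cell types moved as well. The stromal list of ssc-miR-143, ssc-miR-145, ssc-miR-199a and ssc-miR-214 had 4 of 8 entries lower, against 14.9% of all entries, and 1 higher, against 27.9% (ssc-miR-199a-3p, which lost the call without BF-8d 2, adjusted p = 0.0728). Of the 4, ssc-miR-214-5p lost it without BF-0d 1 (adjusted p = 0.0659) or BF-8d 3 (0.0732). The sum of the list was 88167 to 95455 TPM on day 0 and 56878 to 87993 TPM on day 8. Its means were 91429 and 71518 TPM, and most of this was ssc-miR-143-3p (78979 and 59577 TPM). That miRNA was not called, overlapped between the days and is also on the adipocyte list. ssc-miR-199b-5p, which is not on the stromal list, was called higher (8316 TPM on day 0 and 16116 on day 8). The sum thus depends on which members are listed. Of the 7 skeletal muscle entries, 3 were measured. ssc-miR-1 was 792, 931 and 981 TPM on day 0 and 1294, 1594 and 2324 TPM on day 8, and ssc-miR-133a-3p was 7.68, 7.82 and 7.53 TPM on day 0 and 21.1, 23.1 and 23 TPM on day 8. Both rose, with log2 fold changes of 0.91 (adjusted p = 0.0028) and 1.43 (adjusted p = 3.65e-05). ssc-miR-499-5p fell (log2 fold change -0.73, adjusted p = 0.0195), a call lost without BF-0d 3 (adjusted p = 0.112) or BF-8d 1 (0.0719). The list summed to 819 to 1013 TPM on day 0 and 1324 to 2362 TPM on day 8. ssc-miR-9 of neurons was 25.9 ± 3.8 TPM on day 0 and 51.9 ± 4 on day 8 (log2 fold change 0.98, adjusted p = 0.00093). ssc-miR-486 was the 1 measured blood entry and rose from 0.384 to 2.43 TPM. Of the endothelial entries, ssc-miR-126-3p was 58.4 ± 18.8 TPM on day 0 and 71.1 ± 20.6 on day 8 with no call, and the rare ssc-miR-126-5p was 1.23 ± 0.193 TPM on day 0 and 2.71 ± 0.858 on day 8 and called higher (log2 fold change 0.71, adjusted p = 0.0283), a call lost in 6 alternatives, without BF-0d 1, BF-0d 2, BF-0d 3 or BF-8d 3 among them (adjusted p = 0.0561 to 0.126). ssc-miR-122-5p of liver was 9.56 ± 1.92 TPM on day 0 and 6.77 ± 3.32 on day 8 and not called, but met the criteria for a fall with median-of-ratios scaling (adjusted p = 0.0466) and without BF-8d 2 (0.0329). The 4 epithelial entries summed to under 2 TPM in each library. The part of such cells in the results above was not tested.

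The study named 17 key miRNAs and ssc-miR-129b, chosen on these same libraries, so that their counts are not independent evidence. Between day 0 and day 8 of BF, 3 of the 18 rose (ssc-miR-210, ssc-miR-129b and novel_miR_126) and 6 fell (ssc-miR-145-5p, ssc-miR-615, ssc-miR-370, ssc-miR-185, ssc-miR-339-5p and ssc-miR-6782-3p), against 27.9% and 14.9% of all entries. The mature sequence of novel_miR_126 occurs at 3360 places in the genome, so the origin of its reads is uncertain. ssc-miR-370 was 58.9, 27.8 and 42.4 TPM on day 0 and 10.2, 26 and 25 TPM on day 8 (log2 fold change -1.08, adjusted p = 0.0122). Its call was lost without BF-8d 1 (adjusted p = 0.0613). The calls of novel_miR_126, ssc-miR-339-5p and ssc-miR-6782-3p were each lost when 1 to 3 of the libraries were left out in turn. For novel_miR_126 these were BF-0d 3 (adjusted p = 0.109), BF-8d 2 (0.162) and BF-8d 3 (0.124). For ssc-miR-339-5p they were BF-0d 3 (0.0551) and BF-8d 3 (0.0548), and for ssc-miR-6782-3p BF-0d 1 (0.0613). Of those not called, novel_miR_326, novel_miR_433 and novel_miR_930 met the criteria for a rise in 4 or 5 of the alternatives. These 3 and novel_miR_1018 have 1 mature sequence, which occurs at 43 places in the genome, and novel_miR_326 and novel_miR_930 have the same values, so they are not separate measurements. Also, ssc-miR-214-3p and novel_miR_667 met the criteria for a fall in 6 each. Without BF-8d 3, novel_miR_1018 met those for a rise (adjusted p = 0.00292) and ssc-miR-874 those for a fall (0.0171).

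The libraries of day 2 and day 4 show when the levels moved. Of the 120 DE-miRNAs higher on day 8, 60 had a mean that rose at each day, and the median had covered 12.8% of its log2 change by day 2 and 67.7% by day 4. Of the 64 lower ones, 25 fell at each day, and the median had covered 42.2% by day 2 and 65.6% by day 4. The libraries of day 2 differed, since the median in BF-2d 3 was 0% for the higher set, against 16.3% and 18.4% in libraries 1 and 2, and 53.0% for the lower set, against 30.9% and 24.5%. ssc-miR-210 rose at each step, from a mean of 17.8 TPM on day 0 to 62.8 on day 2, 196 on day 4 and 498 on day 8. ssc-miR-29b followed the same course, with 18.1, 48.2, 111 and 190.0 TPM. ssc-miR-30b-5p had means of 46.7, 121, 437 and 366 TPM, but on day 4 library 1 (178 TPM) was below every day 8 library and libraries 2 and 3 (565 and 569 TPM) above them. ssc-miR-27b-3p had means of 15233, 10464, 7138 and 7968 TPM.

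Others moved late or unevenly. ssc-miR-148a-3p was 135795 TPM on day 2 and 142216 TPM on day 4, still near the 120728 TPM of day 0, before it reached 303301 TPM on day 8. ssc-miR-21-5p likewise moved mostly after day 4, with means of 557940 TPM on day 2 and 517830 TPM on day 4. On day 4 a single library could hold the rise: ssc-miR-182 was 209, 424 and 1911 TPM in libraries 1, 2 and 3, and ssc-miR-183, ssc-miR-138 and ssc-miR-146a-5p were also highest in library 3. In contrast, novel_miR_21 was 105 TPM in library 1 and 5.39 and 5.83 TPM in libraries 2 and 3. Means of days 2 and 4 therefore stand for libraries that differ, and no test of these days was made here.

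**Figure D4:**
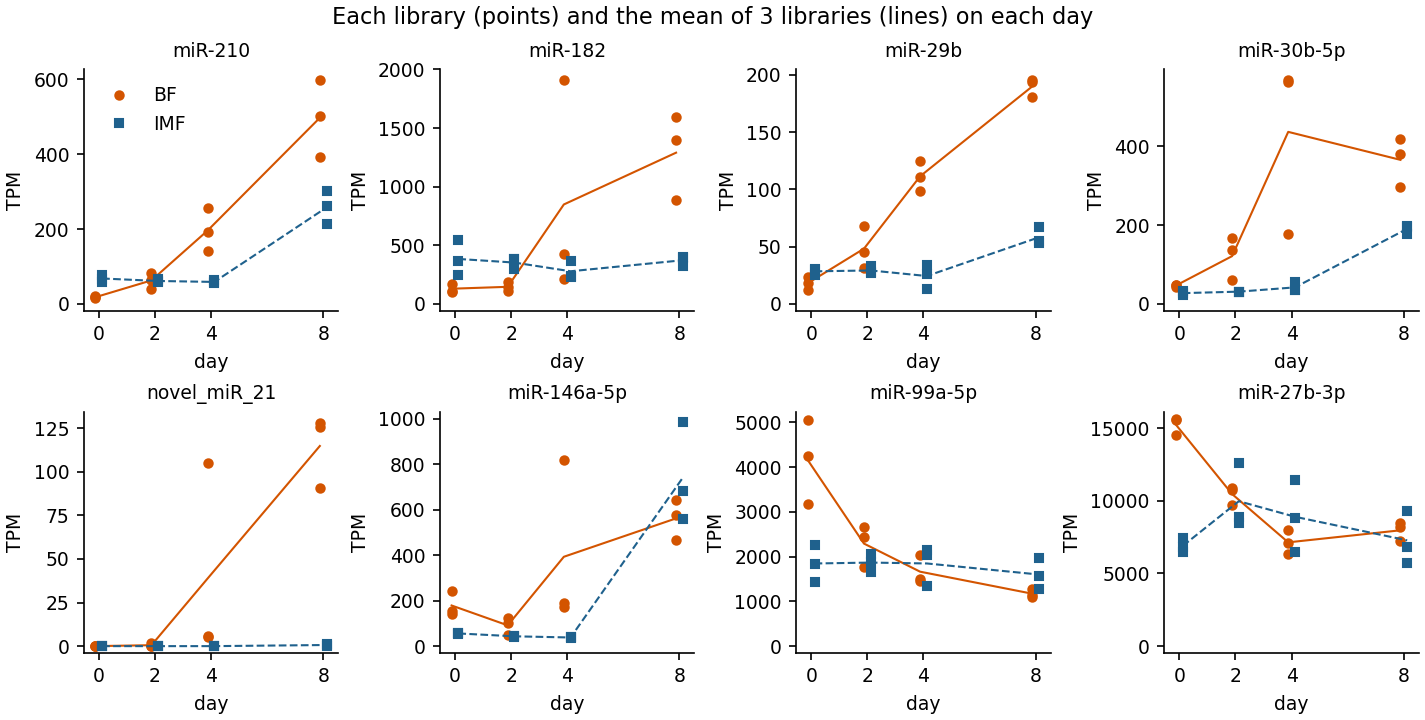
Points are the TPM of 8 miRNAs in each library of BF (orange circles) and IMF (blue squares) on days 0, 2, 4 and 8, and lines join the means of the 3 libraries. In BF, the means of ssc-miR-210, ssc-miR-29b and ssc-miR-30b-5p were above day 0 from day 2 on, and those of ssc-miR-99a-5p and ssc-miR-27b-3p below it. ssc-miR-182 and novel_miR_21 each have 1 high library on day 4.

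The same days of intramuscular adipocytes were used to see which of these changes differ between the sources of cells. IMF-0d vs. IMF-8d gave 131 DE-miRNAs (30.5%, with 19.8% higher and 10.7% lower on day 8), of which 75 were also DE-miRNAs of BF in the same direction, 58 higher and 17 lower. These 75 are 40.8% of the BF set and 57.3% of the IMF set, and 4 others moved in opposite directions. The difference of the changes (BF minus IMF) met the same criteria for 95 of the 430 miRNAs (22.1%), with the BF change above the IMF change for 63 (14.7%) and below it for 32 (7.44%). The 63 include the 10 entries with no read on BF-0d, and without them the counts were 53 above and 32 below. Of the 105 DE-miRNAs of BF that were not DE-miRNAs of IMF, 46 passed this test, so for the other 59 a difference between the sources was not shown.

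ssc-miR-183, ssc-miR-182 and ssc-miR-96-5p rose in BF and did not meet the criteria in IMF. In IMF, ssc-miR-182 was 383 TPM on day 0 and 372 TPM on day 8, above its BF level on day 0 and below it on day 8. The log2 difference of the changes was 3.44 (adjusted p = 6.92e-07) for ssc-miR-183, 3.28 (adjusted p = 4.1e-06) for ssc-miR-182 and 3.01 (adjusted p = 4.1e-06) for ssc-miR-96-5p, and each held in all 21 alternatives. ssc-miR-210 rose in both sources, from 67.9 to 258 TPM in IMF, with the larger change in BF (2.81, adjusted p = 3.18e-07). ssc-miR-29b (2.36, adjusted p = 5.82e-06), ssc-miR-221-5p (2.35, adjusted p = 0.000408), ssc-miR-138 (2.69, adjusted p = 3.46e-06) and ssc-miR-146b (1.84, adjusted p = 0.000194) likewise had the larger change in BF. Of these, ssc-miR-29b and ssc-miR-146b were also DE-miRNAs of IMF.

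For other DE-miRNAs of both sources the difference of the changes did not meet the criteria. ssc-miR-30b-5p rose from 27.3 to 191 TPM in IMF, a difference of changes of 0.15 (adjusted p = 0.683). ssc-miR-218 rose from 30.7 to 127 TPM there (0.39, adjusted p = 0.202), ssc-miR-30a-5p from 545 to 1428 TPM (-0.20, adjusted p = 0.487) and ssc-miR-452 from 2.02 to 26.8 TPM (0.92, adjusted p = 0.0727). ssc-miR-148a-3p rose from 130265 to 229926 TPM (0.50, adjusted p = 0.274). A p above the threshold does not show that the sources act alike.

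The falls around ssc-miR-99a were seen in BF. In IMF ssc-miR-99a-5p was 1846 TPM on day 0 and 1599 TPM on day 8, so the BF level fell from above the IMF level to below it (difference of changes -1.60, adjusted p = 0.000799). ssc-let-7c (-0.98, adjusted p = 0.00952), ssc-miR-125b (-1.04, adjusted p = 0.0107), ssc-miR-27b-3p (-0.99, adjusted p = 0.00952) and ssc-miR-185 (-0.96, adjusted p = 0.0181) also had a BF change below that of IMF, which held in all 21 alternatives, 20 for ssc-miR-185. ssc-miR-146a-5p stood out in the other sense, since it rose in both sources and more in IMF, from 55.8 to 742 TPM (-2.0, adjusted p = 0.000159). ssc-miR-214-3p rose in IMF but not in BF, where its log2 fold change was -0.56 (adjusted p = 0.0249), under the criterion of 1.5-fold (difference of changes -1.26, adjusted p = 0.000799).

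**Figure D5:**
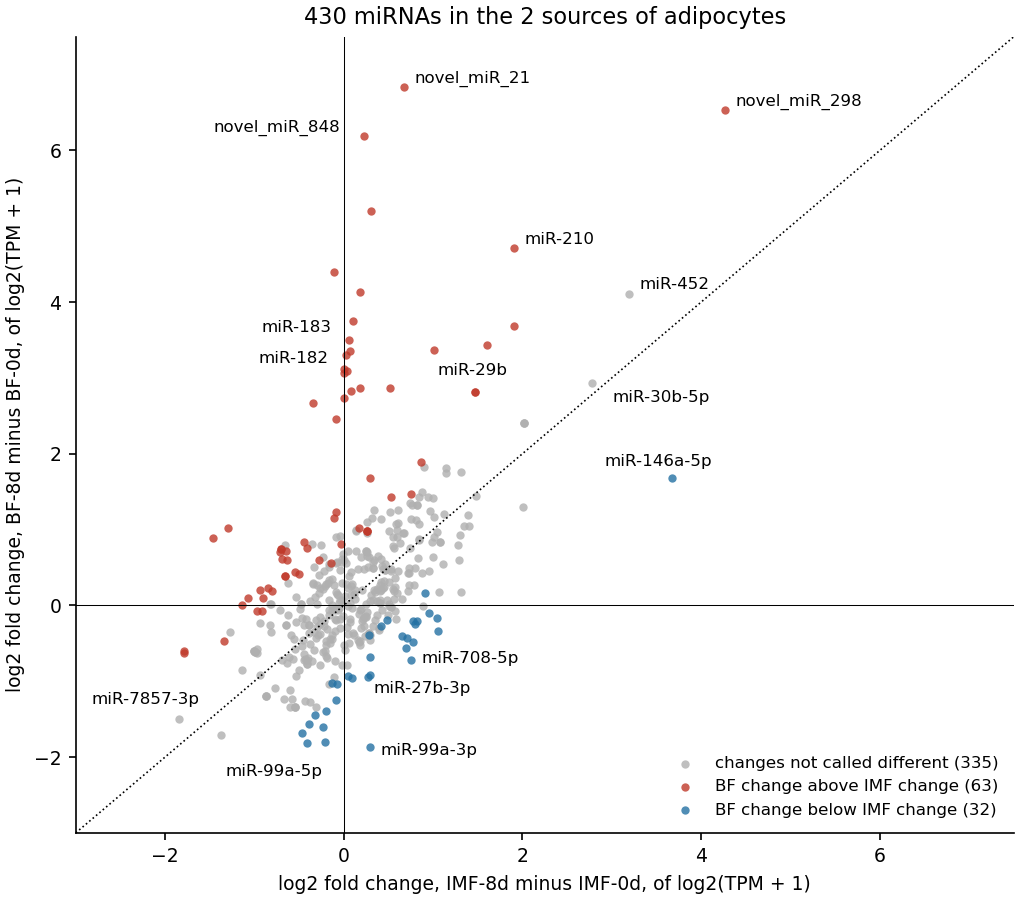
Each point is 1 of the 430 miRNAs, with its log2 fold change between day 0 and day 8 in IMF on the x axis and in BF on the y axis. The dotted line marks equal changes, red points the 63 miRNAs whose BF change was above the IMF change and blue points the 32 below it. ssc-miR-183 and ssc-miR-182 lie near 0 on the x axis and above 3 on the y axis, while ssc-miR-30b-5p lies close to the line.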

How the data were processed

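Small RNA of cultured pig adipocytes was sequenced as 50-base single reads. The authors mapped trimmed reads to Sscrofa11.1 with Bowtie, removed other small RNA classes, named known miRNAs from miRBase, predicted new ones with miRDeep2 and deposited RPM values, which they call TPM (reads per 1000000 miRNA reads); tool versions are not given in the sources used here. Dividing each value by the smallest step of its library gave whole reads (100% of the values of the 6 libraries, tolerance 0.01 of a read), and from these the depths and floors were taken. Intervals and floors cover counting error only, since reads carry no molecular identifiers.

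Groups came from the labels. Entries averaging 1 TPM or more over 24 libraries were tested with limma 3.58.1 (R 4.3.3, moderated statistics with a trend, two-sided) on log2(TPM + 1), with Benjamini-Hochberg adjustment over the 430 entries; DE-miRNAs passed an FDR of 0.05 and changed more than 1.5-fold. The difference between BF and IMF was an interaction term over 12 libraries. An exact permutation test of 3 against 3 libraries cannot give a p below 0.1 and was not used for calls. The fits were repeated with a pseudocount of 0.1, without the filter, with a minimum of 10 TPM, over 24 libraries together, with a block for the replicate number, and with scaling by the median of ratios, as well as with merging of identical sequences, edgeR 4.0.16 and DESeq2 1.42.0 on the whole reads, and leaving out each library. The scripts were tested on simulated data.

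Mature sequences were taken from the study's supplementary table and placed by exact match in the genome; only their RefSeq annotation gives the genes. Entries with the same mature sequence share reads. Named miRNAs are the 10 largest rises and falls without overlap, the 10 most abundant, members of the lists, the 5 largest differences between BF and IMF each way, the study's key miRNAs and relatives of these; the members and lists were chosen with earlier results of these data known.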

Additional observations from a re-analysis of the deposited data

Results flagged for a closer look

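These results were marked because the interaction term separated the changes of BF and IMF over the 8 days, and they are the 5 largest differences each way. The BF change exceeded the IMF change, on the log2 scale, by 6.16 for novel_miR_21, 5.97 for novel_miR_848, 4.89 for novel_miR_623, 4.51 for novel_miR_1222 and 3.96 for novel_miR_744. All 5 are new entries, and novel_miR_21, novel_miR_848, novel_miR_623 and novel_miR_744 had no read on day 0 of either source, so that the difference is that of their day 8 levels. These 4 passed the filter on low values only through the groups where they are high, so their place among the largest differences is no finding.

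In the other direction, the difference was -2.16 for ssc-miR-99a-3p, -2.0 for ssc-miR-146a-5p, -1.60 for ssc-miR-99a-5p, -1.48 for ssc-miR-708-5p and -1.40 for ssc-miR-10383. Both arms of ssc-miR-99a are thus among the 5, and ssc-miR-146a-5p is the 1 of them that rose in both sources. The cause was not tested.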

How the results depend on the processing

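The 184 DE-miRNAs became 105 (69 higher, 36 lower) when only entries with at least 10 TPM were tested, which leaves fewer entries, and the 95 differences between BF and IMF became 51. The other settings gave 177 to 193 DE-miRNAs and 88 to 116 differences. Leaving out 1 library at a time gave 146 to 176 DE-miRNAs, 98 to 124 of them higher and 47 to 57 lower, and 73 to 108 differences. Of the 184, 126 (89 higher, 37 lower) were called in all of their alternatives. Of the 90 DE-miRNAs among the named miRNAs, 68 were.

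Same-numbered libraries of day 0 and day 8 did not deviate together (correlations -0.22, -0.18 and 0.03), so the numbers are not taken as pairs; with the replicate number as a block there were 177 DE-miRNAs (120 higher, 57 lower) and 91 differences, and ssc-miR-21-5p had an adjusted p of 0.0746.

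Over all tested entries, median-of-ratios scaling turned the sign of 29, none of them called. Among the named miRNAs, the sign changed in some alternative for 3, none of them called. novel_miR_779 (log2 fold change 0.01) was -0.13 with median-of-ratios scaling, -0.15 with edgeR, -0.20 with DESeq2, and -0.16 to 0.17 with 1 library left out at a time (below 0 without BF-0d 3, BF-8d 2 or BF-8d 3). ssc-miR-103 (-0.18) ranged from -0.33 to 0.051 with 1 library left out, above 0 without BF-8d 1. ssc-miR-378 (0.15) was -0.020 with DESeq2 and -0.0026 to 0.31 with 1 library left out, below 0 without BF-8d 1. The cause was not tested. The shallowest library, BF-8d 3, had a floor of 3 reads at 0.605 TPM, and levels under it rest on 1 or 2 reads.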
